A study of Mus musculus with 6 samples.

Results

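The genes described here were the 4 platelet-derived growth factor (PDGF) ligand genes Pdgfa, Pdgfb, Pdgfc and Pdgfd, the receptor genes Pdgfra and Pdgfrb, the fibroblast growth factor gene Fgf2 with the FGF receptor genes Fgfr1 and Fgfr2, and Met, which encodes the receptor for hepatocyte growth factor (HGF). They were chosen by gene symbol, with earlier results of these data known. All 10 were found among the 54146 genes of the expression table. A gene was tested when it reached 1 TPM (a share of all transcripts, corrected for transcript length) in at least 3 libraries. By that filter 8 of the 10 were tested among 12301 genes in all, and Pdgfd and Fgfr2 were not.

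PDGF ligands are secreted as dimers and bring together pairs of PDGF receptors, whose intracellular tyrosine kinases then activate the RAS-ERK, PI3K and PLCγ pathways. PDGF-A binds the α receptor, PDGF-B binds both receptors, and PDGF-C and PDGF-D are released as latent forms that proteases activate. FGF ligands bind FGF receptors together with heparan sulfate, and HGF binds MET. In mammary tissue PDGF receptors are best known from stromal and perivascular cells, and tumor cells that have moved toward a mesenchymal state can express them as well.

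All 6 libraries came from D2A1, a mouse mammary tumor cell line used in metastasis and dormancy models, grown as 3D spheroids in Matrigel. The control group of 3 libraries received recombinant glutathione S-transferase (rGST), an unrelated protein, and the other group of 3 received recombinant SLURP1 (rSLURP1), a secreted Ly6/uPAR-family protein. Both proteins were given at 50 nM, and the methods of the study place the harvest on day 5. The labels do not say whether the libraries of a group came from separate cultures, so p-values measure the spread between these libraries only, which may be technical. Between 12390 and 12449 genes reached 1 TPM in the rGST libraries and between 11906 and 11981 in the rSLURP1 libraries, and the 10 most abundant genes held 11.7 to 12.6% and 13.5 to 15.4% of all TPM. TPM sums to a fixed total in each library, so sequencing depth is unknown here. Beside the label of a mammary tumor line, the epithelial genes Epcam, Krt5 and Krt14 were listed at 0 in all 6 libraries and Cdh1 reached at most 0.07 TPM, while Krt18 stood at 195.6 ± 4.13 TPM with rGST and 197.7 ± 1.68 TPM with rSLURP1 (SD, n = 3 each).

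Receptors and ligands of these families were mostly lower with rSLURP1. Pdgfrb fell 5.49-fold in mean TPM, Pdgfb 3.95-fold, Pdgfra 3.66-fold, Fgf2 2.80-fold and Fgfr1 2.13-fold, while Pdgfa and Met stood 1.135- and 1.137-fold lower as deposited and turned higher under other scalings of the libraries. In the limma test across all genes 7 of the 8 tested members were lower and 0 were higher at an adjusted p of 0.05. The same test called 58.5% of all tested genes lower and 8.66% higher, so a lower call was common across the whole table. At 2-fold or more 5 of the 8 members were lower, against 7.06% of all tested genes. The members and the lists below were chosen with earlier results of these data known. Their shares beside those of all genes are therefore a description, not a test. In 7 of the 8 members every rSLURP1 library lay below every rGST library, which was the case in 61.7% of all tested genes.

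The general shift toward lower values matters for the small changes. The median log2 fold change of all tested genes was -0.33, and that of the 8 tested members was -1.16. Scaling each library by the median ratio of its genes to their geometric means moved the all-gene median to -0.0012 and the members' median to -0.84, and called 25.2% of all genes lower and 26% higher. Under that scaling 5 members (Pdgfb, Pdgfra, Pdgfrb, Fgf2 and Fgfr1) were still called lower, 1 (Met) was called higher, and 3 (Pdgfb, Pdgfra and Pdgfrb) were lower by 2-fold or more, against 3.76% of all genes. Fold changes given below are differences of log2(TPM + 1), a scale that understates the change of low genes. In these bulk libraries fewer cells of a type and less RNA per cell cannot be told apart.

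**Figure D1:**
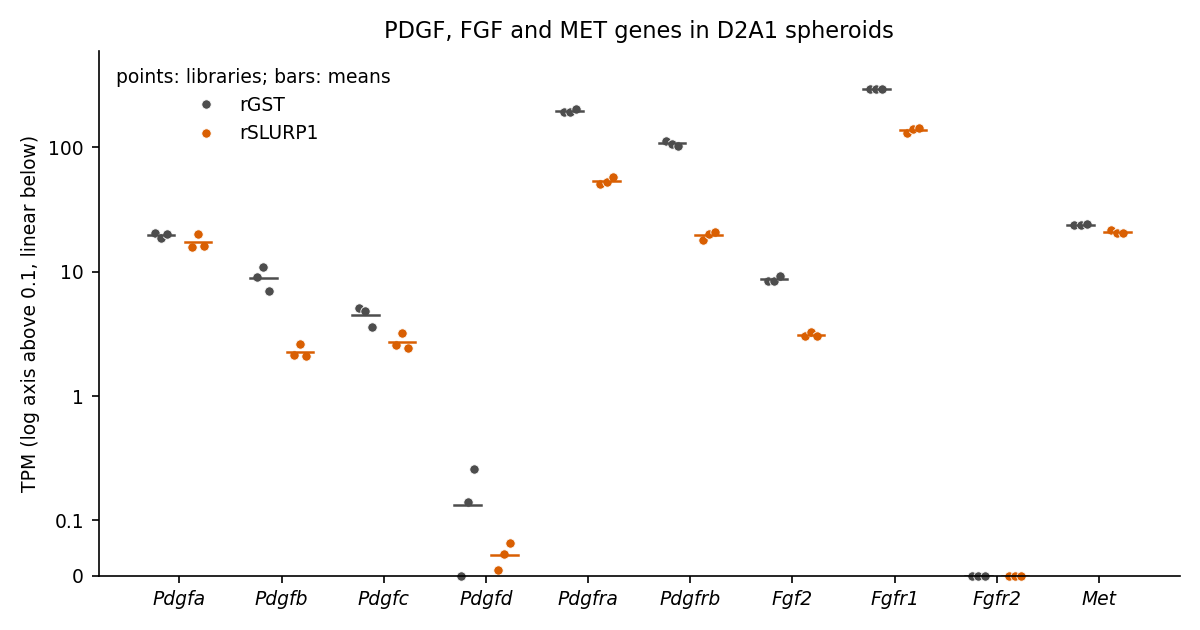
TPM of the 10 genes on the vertical axis (log scale above 0.1 TPM, linear below) in the 3 rGST and 3 rSLURP1 libraries; points are libraries and bars are group means. The groups are furthest apart for Pdgfra, Pdgfrb, Fgfr1, Fgf2 and Pdgfb, they overlap for Pdgfa and Pdgfd, and Fgfr2 is listed at 0 throughout.

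Among the ligands, Pdgfa encodes the A chain, which signals through the α receptor. The gene (ENSMUSG00000025856.15, chr5:138976014-138997370, minus strand, GRCm38) stood at 20.5, 18.6 and 20.01 TPM across the controls and at 15.9, 20.3 and 16.0 TPM across the rSLURP1 libraries. rSLURP1 library 2 lay inside the control range, so the groups overlapped. The log2 fold change was -0.18 (SE 0.10, 95% interval -0.42 to 0.056; adjusted p = 0.15, limma with Benjamini-Hochberg adjustment), and it became 0.16 under median-ratio scaling (adjusted p = 0.19 in the same test). Without rSLURP1 library 2 it was -0.29 with an adjusted p of 0.013 (limma), beside an all-gene median of -0.34 in that fit. Whether Pdgfa was called as deposited thus rested on that library.

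Pdgfb encodes the B chain, the ligand of both receptors and the chief recruiter of pericytes to vessels. Its level (ENSMUSG00000000489.7, chr15:79995874-80014977, minus strand) was 9.03, 10.9 and 7.06 TPM with rGST and 2.13, 2.62 and 2.09 TPM with rSLURP1. Every rSLURP1 library lay below the lowest control, and the controls spread more among themselves than the treated libraries did. The log2 fold change was -1.59 (SE 0.16, 95% interval -1.96 to -1.22; adjusted p = 9.35e-05, limma), and it was -1.31 under median-ratio scaling.

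Pdgfc encodes a latent ligand that tissue plasminogen activator can cleave into its active form. It was found (ENSMUSG00000028019.9, chr3:81036416-81214040, plus strand) at 5.08, 4.85 and 3.61 TPM with rGST and at 2.59, 3.19 and 2.42 TPM with rSLURP1. The groups did not overlap, but the lowest control and the highest treated library were close. The fall of 0.56 on the log2 scale passed the test as deposited (SE 0.15; adjusted p = 0.012, limma) and did not pass it under median-ratio scaling, where the log2 fold change was -0.28 with an adjusted p of 0.14. Pdgfd, the other latent ligand (ENSMUSG00000032006.15, chr9:6168584-6378850, plus strand), was listed at 0, 0.14 and 0.26 TPM with rGST and at 0.01, 0.04 and 0.06 TPM with rSLURP1. Its groups overlapped, all its values were near 0, and it was not tested.

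The 4 PDGF ligand genes together gave 33.4 ± 2.11 TPM with rGST and 22.4 ± 3.17 TPM with rSLURP1 (SD, n = 3 each). Their makeup differed between the groups: the share of Pdgfa in that sum was 54.0 to 64.7% in the rGST libraries and 77.1 to 77.8% in the rSLURP1 libraries, and the share of Pdgfb was 22.8 to 31.6% and 10.0 to 10.3%. Pdgfc kept a share of 11.7 to 14.7% against 11.8 to 12.5%, with overlapping groups. Such shares do not depend on the scaling of a library, since both terms carry the same factor. The ratio of Pdgfa to Pdgfb was 2.27, 1.71 and 2.83 in the rGST libraries and 7.47, 7.73 and 7.65 in the rSLURP1 libraries, with a wide gap between the groups.

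Of the receptors, Pdgfra encodes the α receptor, which accepts the A, B and C chains. The gene (ENSMUSG00000029231.15, chr5:75152292-75198215, plus strand, GRCm38) stood at 194, 191 and 205 TPM across the controls and at 51.1, 52.9 and 57.6 TPM across the rSLURP1 libraries. The 3 treated libraries lay close together, far below every control. Its log2 fold change was -1.85 (SE 0.055, 95% interval -1.98 to -1.72; adjusted p = 4.36e-07, limma). Measured against the median of all genes the difference was -1.53, under median-ratio scaling it was -1.50, and after each library was corrected for transcript length and GC content it was -1.39. By rank, 1.22 to 1.31% of the 54146 genes lay above Pdgfra in the rGST libraries and 4.12 to 4.74% in the rSLURP1 libraries.

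The stretch of 250 bases upstream of the RefSeq start site is shown for Pdgfra, which fell, and for Pdgfc, whose smaller change did not pass under every scaling. RefSeq promoter windows on GRCm38.p6 were matched for 7 of the 10 genes, giving 8 windows of 250 bases before and 50 bases after a start site. Capitals mark the letters CCCCACCC, a motif bound by the factor KLF4, searched on both strands.
Pdgfra, chr5:75152001-75152250, plus strand: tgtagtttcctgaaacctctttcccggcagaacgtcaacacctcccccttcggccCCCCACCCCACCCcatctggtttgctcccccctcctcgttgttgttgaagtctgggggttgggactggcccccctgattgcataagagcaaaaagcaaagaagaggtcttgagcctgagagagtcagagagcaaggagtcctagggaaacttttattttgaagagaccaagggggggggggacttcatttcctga
Pdgfc, chr3:81036166-81036415, plus strand: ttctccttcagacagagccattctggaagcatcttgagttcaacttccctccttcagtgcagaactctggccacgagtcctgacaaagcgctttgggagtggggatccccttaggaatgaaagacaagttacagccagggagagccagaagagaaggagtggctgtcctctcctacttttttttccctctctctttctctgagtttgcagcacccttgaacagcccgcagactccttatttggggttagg

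The Pdgfra window held 2 overlapping copies of the KLF4 letters, from -195 to -188 and from -190 to -183 relative to the start site, on the plus strand. Of the other windows, 1 of the 2 for Pdgfa held 1 copy, and those of Pdgfc, Pdgfd, Fgf2, Fgfr2 and Met held 0. These letters occur in 9.99% of the 32851 windows of that length in the table. The GC box GGGCGG, found in 35.7% of all windows, was in the windows of Met (3 copies), Fgf2 (1 copy) and Pdgfa (1 and 2 copies). The AP-1 letters TGANTCA, found in 7.81% of all windows, occurred once in the window of Met. These matches describe letters in a window and were not tied to the expression values. Pdgfb, Pdgfrb and Fgfr1 have no window here.

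Pdgfrb encodes the β receptor, which accepts the B and D chains and marks pericytes and many stromal cells. It stood (ENSMUSG00000024620.11, chr18:61045150-61085061, plus strand) at 113, 107 and 103 TPM with rGST and at 17.9, 19.97 and 21.04 TPM with rSLURP1. Every treated library lay far below the lowest control, and the spread within each group was small beside the gap. This was the largest change among the 10 genes, with a log2 fold change of -2.40 (SE 0.069, 95% interval -2.56 to -2.24; adjusted p = 3.75e-07, limma), and 0.764% of all tested genes had a lower one. It was -2.06 under median-ratio scaling and -1.90 after the correction for length and GC content. By rank, 2.40 to 2.69% of all genes lay above Pdgfrb with rGST and 10.0 to 11.1% with rSLURP1.

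The receptors did not fall by the same factor. The ratio of Pdgfra to Pdgfrb was 1.72, 1.79 and 1.98 in the rGST libraries and 2.86, 2.65 and 2.74 in the rSLURP1 libraries, so every treated library had the higher ratio. Together the PDGF receptor genes gave 304.6 ± 5.73 TPM with rGST and 73.5 ± 4.82 TPM with rSLURP1 (SD, n = 3 each). The receptor sum was 8.63 to 9.96 times the ligand sum in the rGST libraries and 2.79 to 3.82 times in the rSLURP1 libraries.

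**Figure D2:**
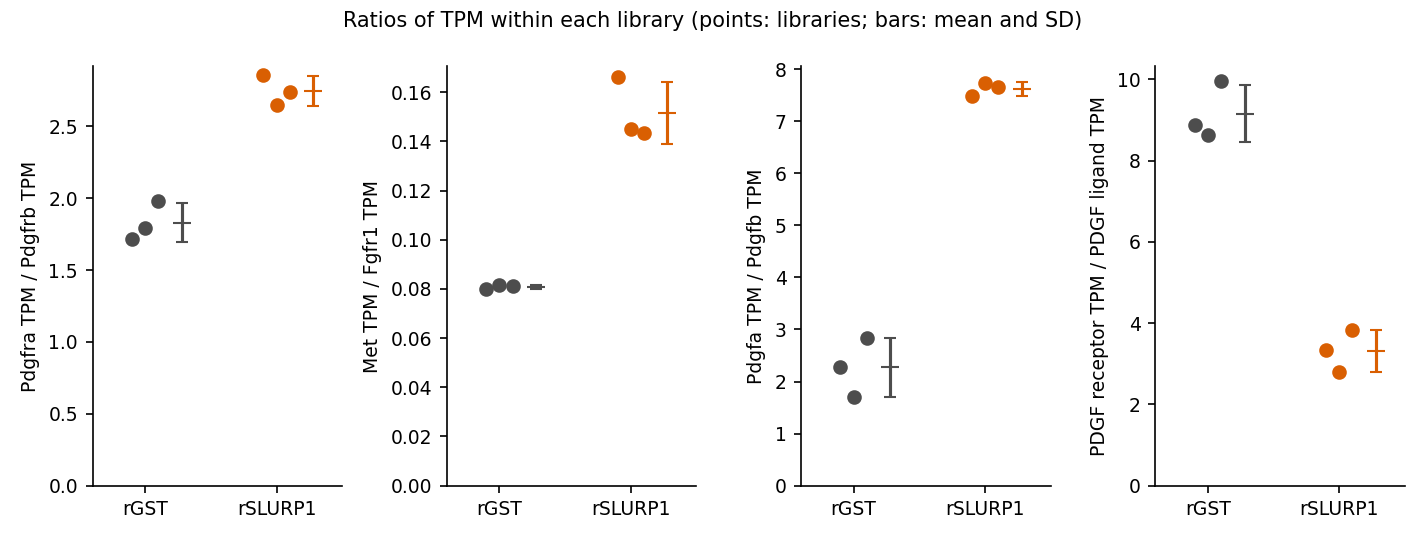
Ratios of TPM within each library for rGST and rSLURP1; points are the 3 libraries of a group, and the bars beside them are the mean and SD. The groups do not overlap in any panel: Pdgfra to Pdgfrb, Met to Fgfr1 and Pdgfa to Pdgfb are higher with rSLURP1, and the summed PDGF receptors to the summed PDGF ligands are lower (9.16 against 3.32 on average).

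Over the 6 libraries, the tested genes whose pattern lay nearest to Pdgfra were Aldh3a1, an aldehyde dehydrogenase, Lxn, a carboxypeptidase inhibitor, and Steap3, a metalloreductase. Nearness was the Euclidean distance between values of log2(TPM + 1) taken from each gene's rGST mean, and it was 0.13, 0.17 and 0.17 for these genes. For Pdgfrb the nearest were the matrix proteoglycan gene Bgn, the actin-associated Synpo and the glucocorticoid-activating enzyme gene Hsd11b1, at 0.15, 0.15 and 0.17. These distances describe a pattern over 6 libraries in 2 groups and carry no test.

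Fgf2 encodes a heparan sulfate-binding ligand that leaves cells without a signal peptide. Its level (ENSMUSG00000037225.13, chr3:37348346-37410108, plus strand) was 8.49, 8.50 and 9.23 TPM with rGST and 3.06, 3.26 and 3.03 TPM with rSLURP1. The libraries of each group lay close together and the groups were well apart. The log2 fold change was -1.24 (SE 0.091, 95% interval -1.45 to -1.03; adjusted p = 2.28e-05, limma), and it was -0.95 under median-ratio scaling.

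Fgfr1 encodes the FGF receptor that predominates in mesenchymal cells, and it was the most abundant of the 10 genes in every library. It stood (ENSMUSG00000031565.18, chr8:25513654-25575718, plus strand) at 298, 293 and 296 TPM with rGST and at 131, 142 and 144 TPM with rSLURP1. The controls were nearly equal, and every treated library lay far below them. The log2 fold change was -1.08 (SE 0.044, 95% interval -1.19 to -0.98; adjusted p = 1.79e-06, limma), and it was -0.73 under median-ratio scaling and -0.59 after the length and GC correction. The ratio of Fgfr1 to Pdgfra went from 1.504 ± 0.050 to 2.59 ± 0.092 (SD, n = 3 each). Fgfr2, the FGF receptor typical of epithelium (ENSMUSG00000030849.18, chr7:130162451-133123350, minus strand), was listed at 0 in all 6 libraries and was not tested.

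Met (ENSMUSG00000009376.15, chr6:17463800-17573980, plus strand) was at 23.8, 23.9 and 24.0 TPM with rGST and at 21.8, 20.6 and 20.7 TPM with rSLURP1. The groups did not overlap, because the spread within each was small. As deposited Met fell by 0.18 on the log2 scale (SE 0.055; adjusted p = 0.021, limma), but the sign turned under median-ratio scaling (0.16, adjusted p = 0.045) and after the length and GC correction (0.25, adjusted p = 0.0059). Against the median of all genes it was 0.15 higher, and by rank 11.1 to 11.2% of all genes lay above it with rGST and 9.74 to 10.5% with rSLURP1. The call as deposited was lost without rGST library 1, 2 or 3 or rSLURP1 library 2 or 3 (adjusted p = 0.054 to 0.062) and was kept without rSLURP1 library 1 (adjusted p = 0.026). Within libraries the ratio of Met to Fgfr1 was 0.080, 0.081 and 0.081 with rGST and 0.17, 0.15 and 0.14 with rSLURP1, without overlap.

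**Figure D3:**
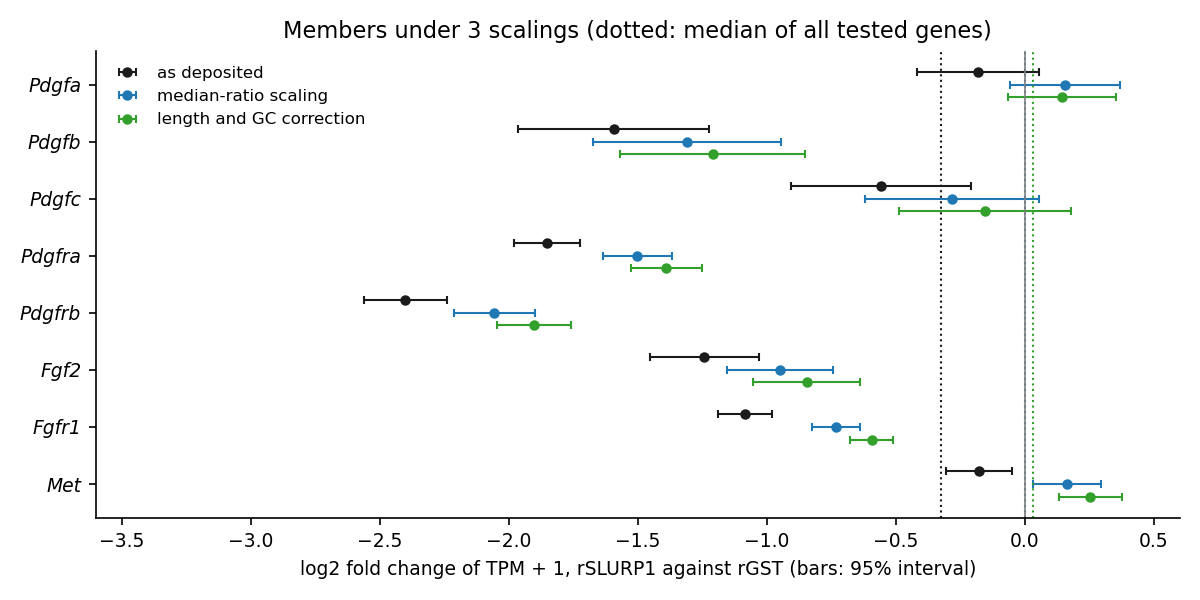
Log2 fold change of TPM + 1, rSLURP1 against rGST, for the 8 tested genes, with 95% intervals from limma, as deposited (black), under median-ratio scaling (blue) and after a length and GC correction (green); dotted lines are the medians of all tested genes. Pdgfrb, Pdgfra, Pdgfb, Fgf2 and Fgfr1 lie below 0 under all 3, the interval of Pdgfc reaches 0 under both corrections, and Pdgfa and Met change sign.

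Since TPM is per transcript length, levels can be compared between genes. With rGST the order of mean TPM was Fgfr1, Pdgfra, Pdgfrb, Met, Pdgfa, Pdgfb, Fgf2, Pdgfc, Pdgfd and Fgfr2, and the only neighbors that overlapped were Pdgfb with Fgf2 and Pdgfd with Fgfr2. With rSLURP1 the order was Fgfr1, Pdgfra, Met, Pdgfrb, Pdgfa, Fgf2, Pdgfc, Pdgfb, Pdgfd and Fgfr2. There Pdgfrb overlapped both Met and Pdgfa, and Fgf2, Pdgfc and Pdgfb overlapped their neighbors in turn. Pdgfrb, well above Met in the controls, was thus at the level of Met after rSLURP1. A 2-sided exact permutation test of each single gene gave p = 0.1, the smallest that 3 against 3 libraries allow, for the 7 tested genes whose groups did not overlap, and p = 0.3 for Pdgfa.

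Genes that mark other cell types were examined beside these results, since Pdgfra and Pdgfrb also mark fibroblasts and mural cells. The 11 fibroblast genes summed to 765 to 914 TPM in the rGST libraries and to 18.8 to 22.6 TPM in the rSLURP1 libraries, and the gene with the highest level, decorin (Dcn), fell from 581 ± 58.2 to 5.46 ± 0.38 TPM. All 6 that were tested were lower as deposited and under median-ratio scaling, beside 58.5 and 25.2% of all tested genes. However, 2 of them (Col1a1 and Dpt) passed the filter only through the rGST group, so their direction was tied to the filter. The other 5 (Col1a2, Col3a1, Pdpn, Thy1 and Fap) were under 1 TPM in every library. This sum moved with Pdgfra and Pdgfrb, and its part in their fall was not tested. Of the 8 mural genes, which summed to 5.49 to 7.28 TPM and 6.52 to 7.95 TPM with overlapping groups, Kcnj8, Abcc9 and Higd1b were at 0 and Rgs5 and Cspg4 at or below 0.07 TPM in all libraries. The 2 mural genes that were tested went in opposite directions, Mcam from 1.39 ± 0.45 to 4.29 ± 0.69 TPM (log2 fold change 1.16) and Notch3 from 4.91 ± 0.56 to 2.82 ± 0.15 TPM (-0.63), both called as deposited. The 12 epithelial genes summed to 194 to 201 TPM and 198 to 201 TPM, nearly all of it Krt18. Of the 2 that were tested, Krt18 was not called as deposited and Krt8 was called lower. Krt8 passed the filter only through the rGST group, and under median-ratio scaling 0 of the 2 were called lower and 1 higher. The 4 endothelial genes stayed at or below 0.31 TPM in sum. The leukocyte list summed to 3.58 to 4.08 TPM and 7.75 to 10.6 TPM, all but 0.01 TPM of it Cd68, with Ptprc at no more than 0.01 TPM. This sum rose while most members fell, and its part in their change was not tested.

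The wider pathway was described from 8 lists of 112 other genes, of which 76 were tested and 14 were at 0 in all libraries. As deposited 52 of the 76 (68.4%) were lower and 7 (9.21%) higher, beside 58.5 and 8.66% of all tested genes. Under median-ratio scaling 30 (39.5%) were lower and 20 (26.3%) higher, beside 25.2 and 26% of all tested genes. Of the 76, 5 (Flt1, Fgf23, Fgfbp3, Plau and Sulf2) passed the 1 TPM filter through the rGST group alone and 1 (Fgf21) through the rSLURP1 group alone, so the direction of these 6 was tied to the filter; none of the 8 tested members passed in that way. No test was made over the lists, and single genes are given for each. The count of each list below is to be read beside these shares of all tested genes.

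Among relatives of the PDGF family, 8 of 10 tested genes were lower and 1 higher, and 7 and 2 under median-ratio scaling. Of all tested genes 58.5% were lower and 8.66% higher, and 25.2 and 26% under median-ratio scaling. Flt1, 1 of the 10, passed the filter through the rGST group alone. The co-receptor genes Nrp2 and Nrp1, whose products bind VEGF and also take part in PDGF signaling, fell from 389.5 ± 8.01 to 168 ± 8.03 TPM and from 41.0 ± 1.702 to 15.9 ± 0.52 TPM (log2 fold changes of -1.21 and -1.32). Vegfa, the main angiogenic ligand, fell from 605 ± 36.3 to 244 ± 13.1 TPM. Pgf, a ligand of the VEGF receptor FLT1, was the exception and rose by 0.59 on the log2 scale (adjusted p = 0.0034, limma), from 4.43 ± 0.70 to 7.14 ± 0.51 TPM. Nrp1, Nrp2, Vegfa and Pgf lie in the same direction under median-ratio scaling.

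Other genes for FGF ligands, receptors and binding proteins were mostly too low to be tested, with 8 of 28 tested. Of these 6 were lower and 1 (Fgf21) higher as deposited, beside 58.5 and 8.66% of all tested genes. Under median-ratio scaling 5 were lower and 1 higher, beside 25.2 and 26% of all tested genes. Of the 8, Fgfbp3 and Fgf23 passed the filter through the rGST group alone and Fgf21 through the rSLURP1 group alone. The direction of these genes within the counts was thus tied to the filter. The steepest fall was that of Fgfbp1, which encodes a carrier that releases FGF2 from the matrix, from 50.1, 57.4 and 36.7 TPM to 2.07, 2.58 and 2.57 TPM. Its log2 fold change of -3.83 (SE 0.16; adjusted p = 2.01e-06, limma) was larger in size than that of any of the 10 genes above. The ligand Fgf7 was lower by more than 2-fold on this scale (-1.12) at levels near 1 TPM with rSLURP1. Fgf23 was at 2.84 ± 0.038 and 0.84 ± 0.092 TPM and the metabolic ligand Fgf21 at 0.42 ± 0.46 and 1.51 ± 0.15 TPM, and each passed the filter only through the group where it was high, so their calls (-1.06 and 0.87) carry no weight of their own.

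For Met, the ligand gene Hgf was listed at 0.52, 0.75 and 0.61 TPM with rGST and at 0.02, 0.05 and 0 TPM with rSLURP1, too low to be tested. Of the 3 tested genes of the HGF system only Spint2, an inhibitor of HGF-activating proteases, was lower as deposited (-0.46), and it was not called under median-ratio scaling, where Mst1, the ligand gene of the related receptor MST1R, was called higher with at most 2.15 TPM in any library. Among proteases that process PDGF ligands all 4 tested genes, Plau through the filter on the rGST group alone, were lower as deposited and 2 under median-ratio scaling. Plat, the tissue plasminogen activator that cleaves PDGF-C, fell from 42.5 ± 1.32 to 5.58 ± 1.38 TPM (log2 fold change -2.75). Furin and Pcsk7, which cleave precursor proteins including the A and B chains, changed by -0.59 and -0.38, but neither was called after the length and GC correction (Furin at -0.077 with an adjusted p of 0.15 and Pcsk7 at 0.066 with an adjusted p of 0.51, limma), and Pcsk7 was at -0.042 under median-ratio scaling.

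**Figure D4:**
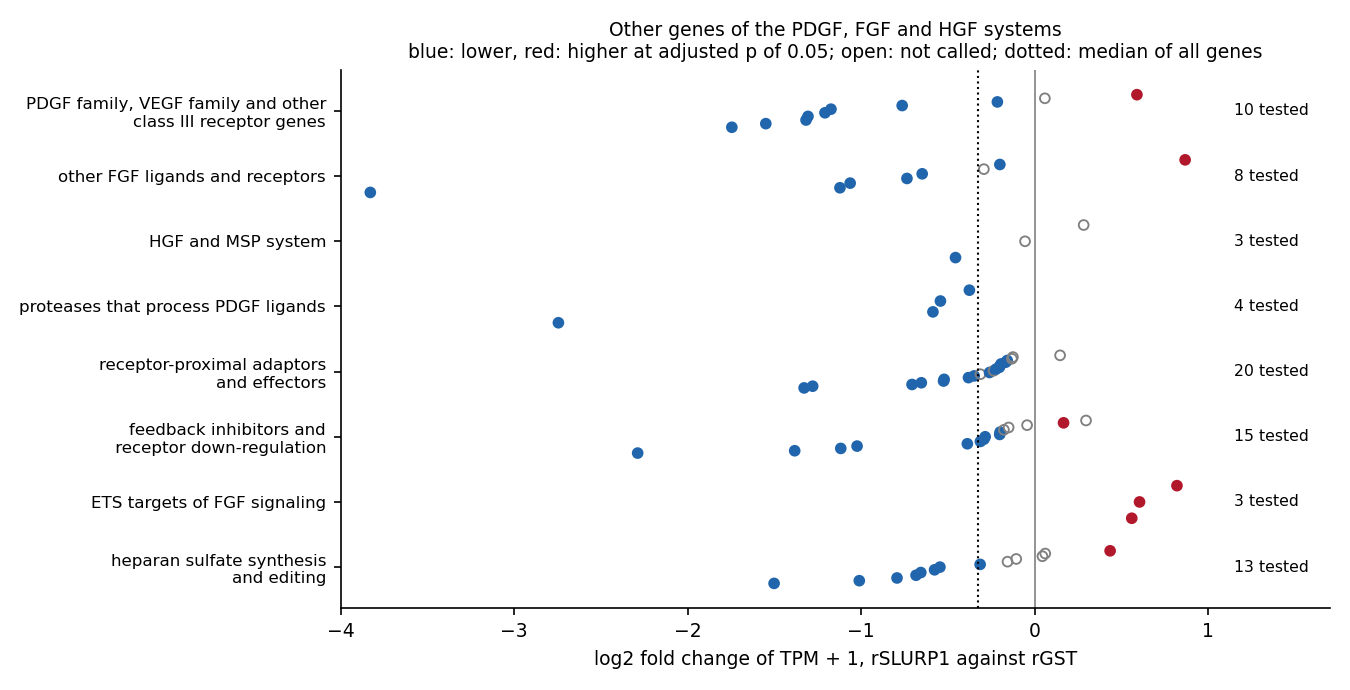
Log2 fold change of TPM + 1 as deposited for the 76 tested genes of the 8 pathway lists; filled blue and red points are genes lower or higher at an adjusted p of 0.05, open points are not called, and the dotted line is the median of all tested genes. Most points lie below 0, as in the whole table, while the 3 ETS genes lie above 0; under median-ratio scaling 20 of the 76 are higher and 30 lower.

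Downstream of the receptors, 15 of 20 adaptor and effector genes (75%) were lower as deposited and 0 higher, beside 58.5 and 8.66% of all tested genes. Under median-ratio scaling 5 (25%) were lower and 5 (25%) higher, beside 25.2 and 26% of all tested genes. The change of these counts with scaling thus went with that of the whole table. Pik3r1 and Pik3r2, regulatory subunits of PI3-kinase, and Gab1, a docking protein for activated receptors, were lower under both scalings (as deposited -1.33, -0.71 and -1.28). Of the 15 genes of feedback and receptor down-regulation, 10 (66.7%) were lower and 1 (6.67%) higher as deposited. Under median-ratio scaling 4 (26.7%) were lower and 4 (26.7%) higher. These shares lay near those of all tested genes, which were 58.5 and 8.66% as deposited and 25.2 and 26% under median-ratio scaling. Spry1, a Sprouty-family inhibitor of receptor signaling, fell from 103, 102 and 96.3 TPM to 19.1, 19.1 and 21.01 TPM (log2 fold change -2.29; adjusted p = 2.30e-07, limma), a change close in size to that of Pdgfrb. Lrp1, an endocytic receptor that associates with the β receptor, and Cblb, a ubiquitin ligase, were lower as well (-1.12 and -1.38).

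Unlike the receptor genes, known targets of FGF-ERK signaling in the ETS family were higher. They do not stand for the feedback genes of the pathway, which went both ways. In the list of feedback and receptor down-regulation 4 genes were called lower and 4 higher under median-ratio scaling. Spry1 and Il17rd were lower as deposited and under median-ratio scaling. The PEA3-group ETS factor genes Etv1, Etv4 and Etv5 were all called higher with rSLURP1, against 8.66% of all tested genes as deposited. Their higher calls held under all 16 alternative settings (highest adjusted p = 0.011 for Etv1, limma). The share of all tested genes called higher was larger in some of these, at 26% under median-ratio scaling and 27% after the length and GC correction. Etv5 stood at 7.63, 7.33 and 7.67 TPM with rGST and at 13.5, 15.4 and 13.5 TPM with rSLURP1, without overlap (log2 fold change 0.82, SE 0.081; adjusted p = 9.35e-05, limma). Etv4 rose from 35.7 ± 1.23 to 55.1 ± 7.16 TPM and Etv1 from 11.6 ± 0.78 to 17.6 ± 2.53 TPM (0.60 and 0.56). Dusp6, a phosphatase of ERK, was at 57.4, 52.4 and 54.0 TPM and at 59.6, 65.0 and 59.6 TPM, also without overlap. Its log2 fold change of 0.17 (adjusted p = 0.032, limma) became 0.51 under median-ratio scaling, while without rGST library 2 or 3 or rSLURP1 library 2 it no longer passed as deposited (highest adjusted p = 0.11). It also missed the threshold without the filter on low values (adjusted p = 0.055, limma) and without the variance trend (adjusted p = 0.058, limma).

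**Figure D5:**
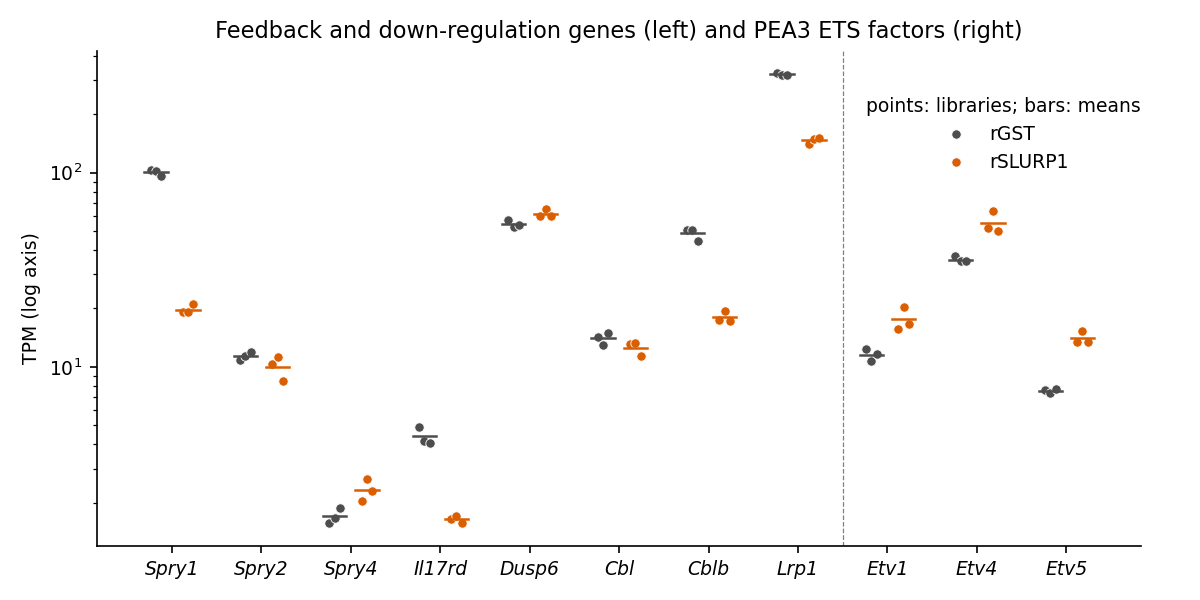
TPM (log axis) of feedback and receptor down-regulation genes (left of the dashed line) and of the PEA3 ETS factor genes (right) in the 3 rGST and 3 rSLURP1 libraries; points are libraries and bars are means. Spry1, Il17rd, Cblb and Lrp1 are lower with rSLURP1 and Dusp6, Etv1, Etv4 and Etv5 higher, both also under median-ratio scaling. In the whole list of feedback and receptor down-regulation genes, 4 were called lower and 4 higher under that scaling. The 3 Etv genes show no overlap between groups.

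Heparan sulfate, the sugar chain that FGF2 and its receptors bind together, was covered by 13 tested genes. Of these 8 (61.5%) were lower and 1 higher as deposited, beside 58.5 and 8.66% of all tested genes. Under median-ratio scaling 7 were lower and 4 higher, beside 25.2 and 26% of all tested genes. Sulf2, 1 of the 13, passed the filter through the rGST group alone. Hs3st1 and Hs6st1, which add sulfate to the chain, were lower (-1.50 and -1.01 as deposited), and so was the polymerase gene Ext2 (-0.68). Glce, the epimerase of the chain, was higher (0.43), from 13.98 ± 0.84 to 19.2 ± 1.04 TPM. Each of these 4 kept its direction and its call under median-ratio scaling.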

How the data were processed

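RNA from D2A1 spheroids treated with rGST or rSLURP1 was sequenced as polyA libraries, 3 per group, grouped by the sample titles. The authors deposited gene-level TPM values. Per the labels these came from bcl2fastq 2.20, cutadapt 1.18, STAR 2.5.2b and RSEM 1.3.3 on mm10, while the methods of the study give other versions of some tools and GENCODE release 12. For the library kit, TruSeq stands in the labels and Smart-seq2 in the methods. TPM keeps no read depth, so no counting interval was given, and no count test was used.

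Genes that reached 1 TPM in 3 or more of the 6 libraries were tested with limma 3.58.1 (R 4.3.3) on log2(TPM + 1), with a trended variance and Benjamini-Hochberg adjustment over all 12301 genes. A call was an adjusted p of 0.05, with a 2-fold change where stated. The script was tested on simulated data. Coordinates and lengths came from GENCODE release 21 on GRCm38, which held 99.9% of the gene identifiers. The members and lists were chosen with earlier results of these data known. All members were named, with up to 3 called genes per list and direction (smallest p) and the 3 genes nearest to Pdgfra and to Pdgfrb. The feedback genes shown in a plot beyond these were chosen after their values were seen, as was the naming of Mst1. Across 16 alternative settings the pseudocount, filter, scaling, variance model, replicate block, length and GC correction and single libraries were varied.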

Additional observations from a re-analysis of the deposited data

How the results depend on the processing

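Pdgfb, Pdgfra, Pdgfrb, Fgf2 and Fgfr1 stayed lower and called under all 16 alternative settings. The number of members lower by 2-fold or more went from 5 to 3 under median-ratio scaling, under quantile normalization and, whether or not a replicate block was used, after correction for length and GC. The members' median log2 fold change, -1.16 as deposited, was -1.27 with a pseudocount of 0.1, -0.84 under median-ratio scaling, -0.88 under quantile normalization and -0.72 after correction for length and GC (block or no block). Leaving out 1 library at a time gave -1.18 to -1.14, with 6 to 7 members called, 5 of them at 2-fold, 50 to 55 pathway genes, and 7329 to 7891 genes in all against 8265, or 896 to 1046 at 2-fold against 1011.

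In the same order (median ratio, quantile, length and GC, and the last with the block), the alternatives turned Pdgfa to 0.16, 0.22, 0.14 and 0.14 and Met to 0.16, 0.21, 0.25 and 0.25. Quantile normalization turned Pcsk7 to 0.028, and correction for length and GC to 0.066 (block or no block). Pdgfc lost its call without a filter (adjusted p = 0.052, limma) and under these corrections (adjusted p = 0.14 to 0.40, limma). The cause was not tested.

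Libraries of the same number shared only that number: their deviations correlated at -0.061 to -0.034. With the replicate number as a block 6 members and 7962 genes were called, 5 members at 2-fold, and Met and Dusp6 missed the threshold (adjusted p = 0.051 and 0.067, limma). Depth is unknown, so how far Pdgfd, Fgfr2 and Hgf lay from background cannot be said.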
